A study of Rattus norvegicus with 12 samples.

Results

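The pair described here consists of rno_piR_005900 and rno_piR_005901, 2 of the 701 names listed as PIWI-interacting RNAs (piRNAs) in small RNA libraries of rat liver. They were found by name, 1 row each, in all 12 libraries. The pair was selected on its read counts in these same libraries, as consecutive numbers with abundant reads. Their levels per library read and their ratio to each other are therefore given as descriptions without a test. Test results for differences between groups were read only from a fit over all piRNAs, which uses the same counts and is not independent of that choice. All rats were of the inbred strain Fischer-344 (F-344). There were 6 libraries of normal liver after a sham operation (pre_PH) and 2 libraries each at 24, 48 and 168 hours after partial hepatectomy (24h, 48h and 168h), an operation that takes out part of the liver and leaves the rest to regrow. Nothing in the labels ties libraries to animals, and the spread behind each p-value is that between libraries, possibly technical. The labels also name no batch, and a time and any preparation its 2 libraries had in common cannot be told apart.

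The piRNAs are small RNAs that guide PIWI proteins to matching transcripts, and they are best known for silencing transposons in the germ line. Outside the germ line, fragments of other abundant small RNAs can be assigned to names in piRNA catalogues, and a catalogue name by itself does not show that an RNA is bound by a PIWI protein. No function of either rno_piR_005900 or rno_piR_005901 is given in the sources used here. Their sequences and genome positions were not used here.

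Libraries held 20741811 to 31467460 reads, of which 120844 to 351818 were assigned to listed piRNAs. Reads of the pair were far above the limit that a count of 0 allows, 3 reads, or 0.0953 to 0.145 RPM (reads per 1000000 library reads). These limits and the intervals given below account for counting error alone, as PCR copies are not independent molecules. In whole liver, fewer cells of a type and less RNA per cell cannot be told apart.

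Both piRNAs were abundant in every library. In the order of the mean percent of piRNA reads over the 12 libraries, rno_piR_005901 came 5th with 7.08% ± 5.40 and rno_piR_005900 came 6th with 4.90% ± 2.77 (SD, n = 12 libraries for each). The 2 names next above were rno_piR_004288 (10.8% ± 7.51) and rno_piR_005567 (8.08% ± 11.5), and the 2 next below were rno_piR_005787 (4.54% ± 3.32) and rno_piR_008639 (3.79% ± 1.82). Each of these 6 names differed from the next in the order by less than the SD of either. Within libraries some orders were steadier: rno_piR_004288 and rno_piR_005901 each had more reads than rno_piR_005900 in 10 of 12. In single libraries, rno_piR_005901 had more reads than rno_piR_005567 in 8 of 12 libraries and than rno_piR_005787 in 8 of 12, and rno_piR_005900 had more than rno_piR_005787 in 7 of 12. By reads, rno_piR_005901 ranked from 2nd to 8th in a library and rno_piR_005900 from 3rd to 10th.

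The 2 names differed sharply in how many read sequences stood behind their counts. In every library the deposited count of unique reads for rno_piR_005901, read here as distinct read sequences, was 1. Its reads were 3457 at the fewest (24h replicate 1) and 25435 at the most (48h replicate 1). Whether the sequence was the same in each library cannot be read from the counts. The reads of rno_piR_005900 came from 58 to 110 distinct sequences in a library, with a median of 87, and it ranked between 1st and 8th of all listed piRNAs by that number.

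No other listed piRNA combined 1 distinct sequence with a high count. Between 55 and 206 names per library, rno_piR_005901 included, had 1 distinct sequence, and the most reads any other of these had was 43, for rno_piR_000575 in pre_PH replicate 6. Reads of rno_piR_005901 were 144 to 4239 times those of the next such name in the same library. Other piRNAs with at least 1000 reads, 7 to 15 per library, had between 3 and 120 distinct sequences. The highest number of reads per distinct sequence among other piRNAs was 1849, for rno_piR_005567 in 168h replicate 2, against at least 3457 for rno_piR_005901. The treatment of reads that match several names is not given in the sources used here, and whether it bears on the single sequence of rno_piR_005901 was not tested.

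**Figure D1:**
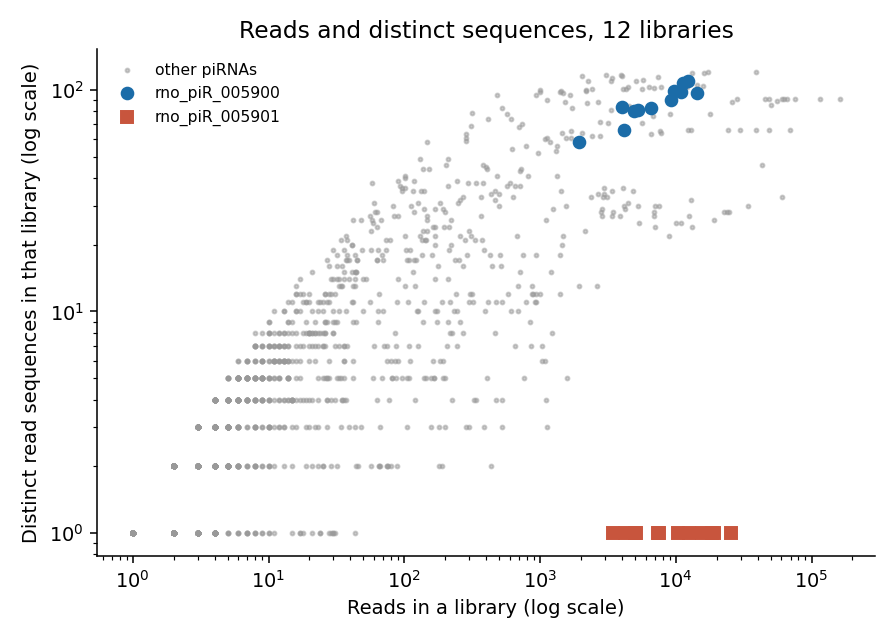
Reads (x axis, log scale) and distinct read sequences (y axis, log scale) of each listed piRNA in each of the 12 libraries, 1 point per piRNA and library. The 12 points of rno_piR_005901 (squares) lie at 1 distinct sequence and 3457 to 25435 reads, apart from all others, and those of rno_piR_005900 (large circles) at 58 to 110 distinct sequences.

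The number of distinct sequences of rno_piR_005900 was lowest in 24h replicate 1, the library with its fewest reads (1921). Among pre_PH libraries the number was 80 to 108 (median 90). The 24h libraries had 58 and 84, the 48h libraries 98 and 110 and the 168h libraries 66 and 90. Reads per distinct sequence, not scaled to library size, were 33.1 and 47.8 at 24h, both below the 61.0 to 147 of pre_PH (median 88.8). The unscaled reads at 24h, 1921 and 4016, were also below all pre_PH libraries (lowest 4881), so this is not a separate observation. The share of other piRNAs with such a separation was not counted. Reads per distinct sequence were 112 in both 48h libraries, inside the pre_PH range. At 168h they were 62.8 and 102, inside it as well.

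Per library read, rno_piR_005900 was low at 24h. It had 65.7 and 175 RPM in the 24h libraries, both below the pre_PH libraries (lowest 207, median 291, highest 495). By this measure 15.0% of the 80 piRNAs tested lay below pre_PH in both 24h libraries. The geometric mean at 24h was 0.355 of that in pre_PH, a log2 difference of -1.49. That difference was -0.78 without 24h replicate 1 and -2.20 without 24h replicate 2. At 48h the values were 529 and 393, 1 above the pre_PH range and 1 inside it. At 168h they were 134 and 334, 1 below that range and 1 inside it.

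Per library read, rno_piR_005901 was spread more widely. At 24h it had 118 and 331 RPM of library reads, 1 below and 1 inside the range of pre_PH (lowest 202, median 326, highest 669). At 48h it had 1226 and 585, 1 above that range and 1 inside it, and the geometric mean was 2.55 times that in pre_PH (log2 difference 1.35). At 168h it had 137 and 565, again 1 outside and 1 inside. The 48h replicate 1 library, with the highest RPM, had the fewest library reads and also the most reads of rno_piR_005901 (25435). Without it the log2 difference at 48h was 0.82.

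**Figure D2:**
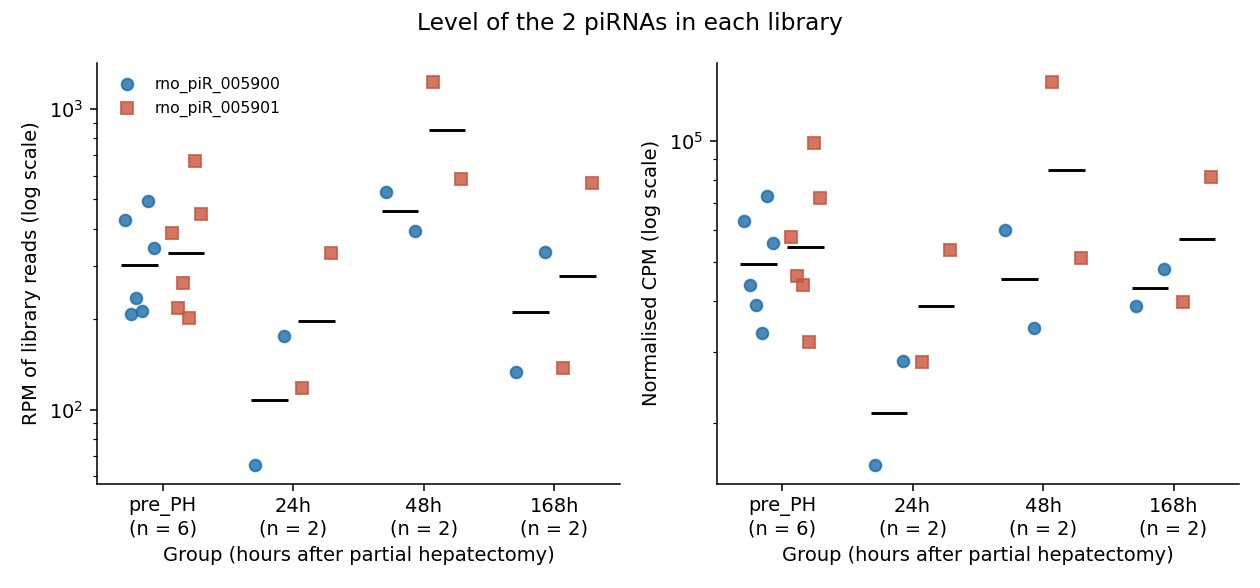
RPM of library reads (left, log scale) and TMM-normalised CPM of piRNA reads (right, log scale) of rno_piR_005900 (circles) and rno_piR_005901 (squares), 1 point per library, with the geometric mean of each group as a bar. Both 24h libraries of rno_piR_005900 lie below all pre_PH libraries in both panels (65.7 and 175 against 207 to 495 on the left), while as a percent of listed piRNA reads, not drawn, 1 of the 2 lies inside the pre_PH range.

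The order of the group levels depended on the scale, and neighbouring groups overlapped in RPM. In RPM of library reads, rno_piR_005900 had means of 320.5 ± 121 for the pre_PH libraries (SD, n = 6), 121 ± 77.6 for 24h, 461 ± 96.1 for 48h and 234 ± 142 for 168h (SD, n = 2 for each time). The means of rno_piR_005901 were 365 ± 178 for pre_PH, 225 ± 150 for 24h, 906 ± 453 for 48h and 351 ± 302 for 168h. The order of these means from high to low was therefore 48h, pre_PH, 168h, 24h in each, and for each of the pair the libraries of neighbours in this order overlapped. By medians rno_piR_005901 had 351 RPM at 168h and 326 in pre_PH, the opposite order for these groups. In TMM-normalised CPM (counts per 1000000 piRNA reads after scaling) the order differed between the 2 names. The mean CPM of rno_piR_005900 was highest in pre_PH (51496), followed by 48h (47279), 168h (43480) and 24h (22102). That of rno_piR_005901 was highest at 48h (95425), followed by 168h (60566), pre_PH (58423) and 24h (41002). As a mean percent of piRNA reads, 168h also stood above pre_PH for rno_piR_005901 (6.96 and 5.95%) and below it for rno_piR_005900 (4.76 and 5.25%). On all 3 scales the lowest mean of each was that at 24h. Over all 12 libraries the RPM of rno_piR_005900 ranged 8.05-fold and that of rno_piR_005901 ranged 10.4-fold.

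Relative to the other piRNAs, changes were tested with edgeR on read counts in 1 fit of all 12 libraries and 80 piRNAs, with an adjusted p under 0.05 as the threshold. Neither rno_piR_005900 nor rno_piR_005901 passed in any of 6 comparisons. At 24h 2.5% of all piRNAs tested passed, at 48h 46.2% and at 168h 6.25%, each against the same pre_PH libraries. Between 24h and 48h 17.5% passed, between 48h and 168h 37.5%, and for the mean of the 3 times against pre_PH 6.25%.

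The normalised level of rno_piR_005900 was lowest at 24h, with 15774 and 28429.9 TMM-normalised CPM against 33462 to 73005 in pre_PH (median 49928). By CPM the 24h and pre_PH libraries did not overlap, as was so, in the direction of lower values, for 12.5% of the 80 piRNAs. As a percent of listed piRNA reads they did overlap, with 1.57 and 2.19% at 24h against 1.88 to 8.91% in pre_PH. The log2 fold change was -1.22 ± 0.69 (SE, 95% interval -2.66 to 0.22, edgeR adjusted p = 0.525), where the median of all piRNAs tested was -0.22. It was -2.28 without 24h replicate 2 and -0.71 without 168h replicate 2. At 48h it had 60256 and 34302 CPM and at 168h 38960 and 48001, all inside the pre_PH range. The log2 fold changes against pre_PH were -0.12 ± 0.65 at 48h (95% interval -1.46 to 1.22, edgeR adjusted p = 0.895) and -0.24 ± 0.65 at 168h (-1.59 to 1.10, edgeR adjusted p = 0.876). The sign at 48h differed between scalings, from -1.02 with TMM factors computed without the pair to 0.55 with upper-quartile scaling. Without 48h replicate 1 it was -1.52.

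Between the 2 libraries of a time, the CPM of rno_piR_005901 differed most at 48h, with 139735 and 51115 against 31772 to 98649 in pre_PH (median 52016). In RPM of library reads they differed most at 168h (4.12-fold, against 2.09-fold at 48h). At 48h 1 library lay above the pre_PH range of CPM and 1 inside it. The log2 fold change was 0.71 ± 0.67 (SE, 95% interval -0.68 to 2.09, edgeR adjusted p = 0.409), with a median of 0.09 over all piRNAs tested. Without 48h replicate 1 it was -1.08 (edgeR adjusted p = 0.419), the opposite sign. Leaving out 168h replicate 1 (-0.46), leaving out 24h replicate 2 (-0.19) and computing TMM factors without the pair (-0.09) also gave negative values. At 24h rno_piR_005901 had 28387 and 53618 CPM, a log2 fold change of -0.51 ± 0.72 (-1.995 to 0.97, edgeR adjusted p = 0.860), which was -1.56 without 24h replicate 2 and 0.036 without 168h replicate 2. At 168h it had 39984 and 81147 CPM, a log2 fold change of 0.05 ± 0.69 (-1.38 to 1.49, edgeR adjusted p = 0.941), which was 0.58 without 168h replicate 1 and -1.06 without 168h replicate 2.

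The steps between times did not pass for either. For 48h against 24h the log2 fold change was 1.10 ± 0.80 for rno_piR_005900 (SE, 95% interval -0.55 to 2.74, edgeR adjusted p = 0.298) and 1.22 ± 0.86 for rno_piR_005901 (-0.57 to 3.01, edgeR adjusted p = 0.293), beside a median of 0.57 over all piRNAs tested. Both were negative without 48h replicate 1 (-0.30 and -0.62, in the same order) or 168h replicate 1 (-0.15 and -0.050). For 168h against 48h it was -0.12 ± 0.79 and -0.66 ± 0.86 (edgeR adjusted p = 0.963 and 0.602, in the same order). For the mean of the 3 times against pre_PH it was -0.53 ± 0.46 for rno_piR_005900 (-1.47 to 0.41, edgeR adjusted p = 0.528) and 0.08 ± 0.49 for rno_piR_005901 (-0.93 to 1.10, edgeR adjusted p = 0.907). The 95% intervals at single times reached past a 2-fold change in at least 1 direction for both, so these results do not show that either stayed the same. These comparisons share libraries and are not independent of each other.

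**Figure D3:**
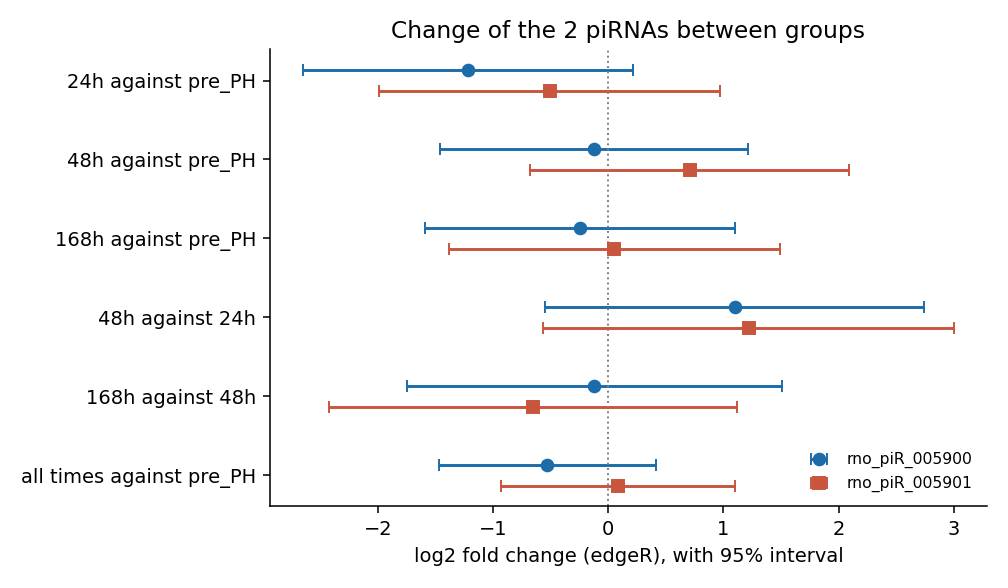
Log2 fold changes (x axis) of rno_piR_005900 (circles) and rno_piR_005901 (squares) in 6 comparisons from the edgeR fit, with 95% intervals as bars; positive values are higher in the group named first. All 12 intervals include 0, and the lowest estimate is that of rno_piR_005900 at 24h (-1.22).

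The ratio within the pair varied less over the libraries than that of most pairs of piRNAs. The SD over the 12 libraries of the log2 ratio of rno_piR_005900 to rno_piR_005901 was 0.435, which depends on no scaling. That was the 4th smallest among the 1830 pairs of the 61 piRNAs found in every library, whose median was 1.48 and range 0.246 to 3.11. Among the 210 pairs of the 21 piRNAs with at least 100 reads in every library it was the 3rd smallest. The pairs with a smaller SD were rno_piR_000324 with rno_piR_032799 (0.246), rno_piR_000562 with rno_piR_032799 (0.399) and, with under 100 reads in some libraries, rno_piR_000965 with rno_piR_005854 (0.435). These were named after their values were seen. The pair itself was chosen with these counts known, so its place in both orders is a description and not a test.

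**Figure D4:**
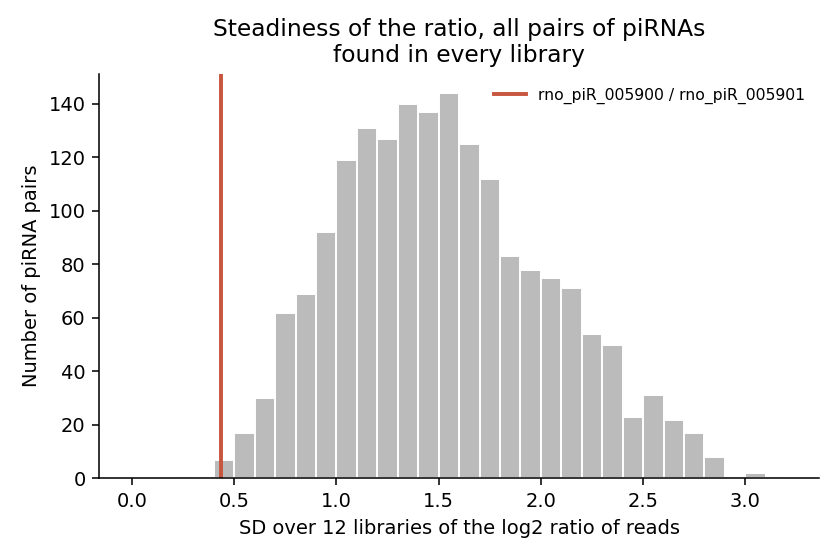
Distribution over 1830 pairs of piRNAs found in every library of the SD of their log2 read ratio over the 12 libraries (x axis), with the number of pairs on the y axis. The line marks rno_piR_005900 with rno_piR_005901 at 0.435, near the low end of a distribution with a median of 1.48. The pair was chosen with these counts known, so its position is a description.

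The split of reads between them was not constant. The share of rno_piR_005901 in the reads of both was 47.7 to 57.5% in pre_PH (median 52.0%). It was 64.3% (95% Wilson interval 63.0 to 65.6%) and 65.3% (64.5 to 66.2%) at 24h. At 48h it was 69.9% (69.4 to 70.3%) and 59.8% (59.3 to 60.4%). At 168h it was 50.6% (49.6 to 51.7%) and 62.8% (62.2 to 63.4%). Both libraries at 24h and both at 48h lay above all 6 pre_PH libraries, while at 168h 1 lay above and 1 inside the pre_PH range.

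As a log2 ratio of rno_piR_005900 to rno_piR_005901, the mean was -0.14 ± 0.23 over pre_PH libraries (SD, n = 6), -0.88 ± 0.05 over those of 24h, -0.89 ± 0.45 over those of 48h and -0.40 ± 0.51 over those of 168h (SD, n = 2 for each time). There were 1.84 ± 0.06 reads of rno_piR_005901 per read of rno_piR_005900 at 24h (SD, n = 2) and 1.11 ± 0.18 in pre_PH (SD, n = 6). Such separation from rno_piR_005900 was not rare. The ratios that follow all have rno_piR_005900 as denominator, so they do not tell how often 2 other piRNAs separate. Of the other 59 piRNAs found in every library, 22.0% had a ratio of reads to rno_piR_005900 above the pre_PH range in both 24h libraries, 18.6% in both 48h libraries and 20.3% in both 168h libraries. Against pre_PH, the median shift of the log2 ratio of these 59 to rno_piR_005900 was 1.15 at 24h, -0.13 at 48h and 0.65 at 168h. Since the pair was chosen with these counts known, the shift in the split was not tested.

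**Figure D5:**
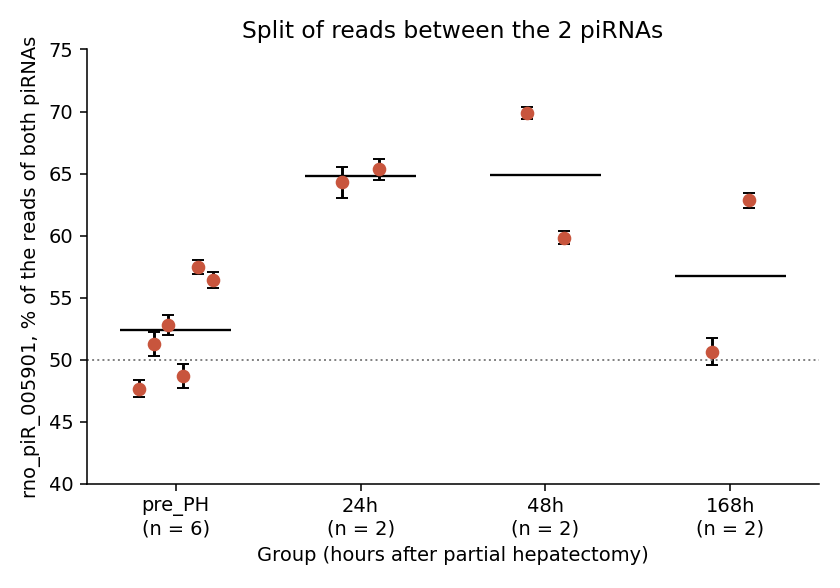
Share of rno_piR_005901 in the reads of both piRNAs (y axis, percent, from 40 to 75), 1 point per library with its 95% Wilson interval, and the group mean as a bar; the dotted line marks 50%. The 4 libraries at 24h and 48h lie between 59.8 and 69.9%, above the 6 pre_PH libraries at 47.7 to 57.5%.

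Together the pair made up 3.99 to 19.1% of the piRNA reads of pre_PH libraries (median 11.1%). The 24h libraries held 4.38 and 6.31%, the 48h libraries 30.1 and 12.2%, and the 168h libraries 6.64 and 16.8%. Only 48h replicate 1 lay outside the pre_PH range. In that library rno_piR_005901 alone held 21.0% (95% Wilson interval 20.8 to 21.3%), its highest share, and rno_piR_005900 held 9.08% (8.92 to 9.24%), also its highest.

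The 5 other piRNAs named here are the nearest to the pair by a fixed measure. The 5 with the smallest SD of the log2 ratio to the summed reads of the pair over 12 libraries were rno_piR_021540 (0.841), rno_piR_001199 (0.901), rno_piR_000699 (0.906), rno_piR_005593 (0.918) and rno_piR_001415 (0.951). All 5 had far fewer reads than either of the pair, with medians from 20 reads for rno_piR_021540 to 452 for rno_piR_000699. Counting error weighs more at such counts, and these SDs are against summed reads. They are therefore not directly comparable with the SD of 0.435 within the pair. Relative to the pair, rno_piR_000699 stood at a mean log2 ratio of -5.03 for pre_PH, -4.84 for 24h, -6.37 for 48h and -4.37 for 168h. Of these 5, rno_piR_001199 had few distinct sequences, 2 in every library. At 10 to 438 reads it still had more sequences than rno_piR_005901.

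Names with nearby numbers had few reads. Within 10 of the pair's numbers, only rno_piR_005891 and rno_piR_005899 were listed. The first had 19 reads in all, in 6 libraries, with 7 at most. The second had 3 reads in all, in 48h replicate 2 and 168h replicate 1.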

How the data were processed

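Small RNA was sequenced from 12 rat liver libraries; per the labels' protocols, TRIzol RNA was made into libraries with the Illumina TruSeq small RNA kit. The authors' deposited tables give, per piRNA, the read count, a count headed #uniqueReads and percent values relative to all and to mapped reads. Both counts are whole numbers. The second was read here as the number of distinct read sequences, which its header alone does not settle. The submitters' processing notes name CASAVA 1.8, cutadapt and DESeq 1.14.0 along with the genome build rn4, without roles. The aligner, and how a read matching more than 1 name was counted, were not stated. The value of any single name is uncertain where a similar name could take some of its reads.

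Library totals were obtained from read count over percent of all reads, and an unlisted piRNA was taken as a count of 0. Listed reads were 99.2 to 99.9% of the mapped total that the other percent implies. Read counts entered edgeR 4.0.16 (R 4.3.3; robust quasi-likelihood F-test, TMM, filterByExpr, 4 groups in 1 fit, Benjamini-Hochberg over 80 piRNAs); both members of the pair passed the filter. The standard error is the log2 fold change over the square root of F. RPM of library reads are given without a test. Exact two-sided permutation tests of log2 RPM were run (8 tests, smallest adjusted p = 0.286), but nothing is read from them. With 28 splits per time, the permutation p of a single time cannot fall below 0.0357 before adjustment, and the counts had chosen the pair. DESeq2 1.42.0, limma-voom (limma 3.58.1), other scalings and filters, and leaving out each library were alternatives. Named besides the pair were the 5 piRNAs with the steadiest ratio to it, the 2 names above and below it in abundance, and names within 10 of its numbers. The pair, rules and comparisons were chosen with earlier results of these data known. Cell type markers were not used here, since the tables hold piRNAs only.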

Additional observations from a re-analysis of the deposited data

How the results depend on the processing

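None of the 12 edgeR results of the pair passed under any of their 300 alternatives (smallest adjusted p 0.0600, for rno_piR_005900 at 48h against 24h on the authors' library totals). The log2 fold change kept its sign in all 25 alternatives for rno_piR_005900 at 24h against pre_PH and for the 3 times pooled. Among the 300 edgeR values, 51 changed sign. So did 10 of 96 alternatives to the differences in RPM of library reads, which include values per piRNA read. No test is read from these 96. The cause was not tested.

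At 48h against pre_PH, rno_piR_005900 had a log2 fold change of 0.23 with DESeq2 size factors and with the DESeq2 Wald test, 0.41 scaled to the piRNA total, 0.55 with upper-quartile scaling, 0.52 on the authors' library totals and 0.11 with at least 10 reads in 6 libraries, but -1.02 with TMM without the pair, -0.50 with TMM without the 10 most abundant piRNAs and -0.52 without a filter. For rno_piR_005901 TMM without the pair gave -0.092 at 48h, -0.18 at 168h and -0.30 pooled, and the authors' totals gave -0.055 at 168h. Summing the pair into 1 row gave -0.13 at 48h, 0.20 at 168h and -0.12 pooled. For 168h against 48h, rno_piR_005900 had 0.37 and rno_piR_005901 0.014 with TMM without the 10 most abundant piRNAs, rno_piR_005900 had 0.34 with TMM without the pair, both had 0.33 when summed, and without a filter they had 0.68 and 0.34. Without a filter rno_piR_005900 had 0.16 at 168h against pre_PH. Per piRNA read instead of library read, the log2 difference at 168h was 0.0088 for rno_piR_005900 and 0.27 for rno_piR_005901. In RPM of library reads, the summed pair gave a log2 difference of -0.13 for the pooled times. Counted in distinct sequences, the mean log2 ratio of rno_piR_005900 to rno_piR_005901 was 6.50 for pre_PH, 6.13 for 24h, 6.70 for 48h and 6.27 for 168h. As rno_piR_005901 had 1 distinct sequence in every library, these values reflect the distinct sequences of rno_piR_005900 alone.

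Leaving out 1 library at a time, the edgeR log2 fold change of rno_piR_005900 ran from -2.28 to -0.71 at 24h, -1.52 to 0.041 at 48h, -1.08 to -0.03 at 168h, -0.30 to 1.18 for 48h against 24h, -0.98 to 1.29 for 168h against 48h and -1.38 to -0.30 pooled. That of rno_piR_005901 ran from -1.56 to 0.036, -1.08 to 0.93, -1.06 to 0.58, -0.62 to 1.45, -1.99 to 1.04 and -0.67 to 0.39 for the same comparisons. The log2 difference in RPM of library reads ran from -2.20 to -0.78 at 24h, 0.38 to 0.81 at 48h, -1.18 to 0.15 at 168h and -0.73 to -0.13 pooled for rno_piR_005900. For rno_piR_005901 it ran from -1.49 to -0.0070, 0.82 to 1.88, -1.28 to 0.76 and -0.24 to 0.44. The lone library of a time was then assumed to vary like the other groups.

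Scaling also moved all piRNAs together: the median log2 fold change shifted from that with TMM by -0.96 to 0.74 at 48h, -0.26 to 0.41 at 24h and -0.60 to 0.15 at 168h. The number of piRNAs called was 2 at 24h (0 to 5 over all alternatives), 37 at 48h (16 to 52), 5 at 168h (0 to 8), 14 for 48h against 24h (1 to 33), 30 for 168h against 48h (16 to 37) and 5 pooled (2 to 18).

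Correlations between same-numbered libraries, taken on their deviations from group means, ran from -0.436 to 0.347. The 2 libraries of a time have deviations that mirror each other. These values therefore cannot show whether libraries with the same number had anything else in common. With a replicate block, in which pre_PH replicates 3 to 6 no longer inform the comparison, the pair was again not called (rno_piR_005900 at 24h -1.27, edgeR adjusted p = 0.691; rno_piR_005901 at 48h 0.89, edgeR adjusted p = 0.539), and calls numbered 1 at 24h, 27 at 48h and 0 at 168h.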
